A study of Mus musculus with 21 samples.

Results

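The net change of mouse embryonic stem cells (ESCs) after a day of retinoic acid was measured by setting 3 libraries taken at 24 h with 2 µM retinoic acid (RA_24h) against 3 libraries of the starting cells taken at 0 h (ESC_0h). These 6 libraries were chosen by their titles, out of 21 libraries in the series and 15 of its time course. All of the cells were wild type. The labels give 1 culture text for all of them and do not say whether LIF and inhibitors were withdrawn when retinoic acid was added. The ESC_0h cells were grown on gelatin in serum with LIF, 1 µM of the MEK inhibitor PD0325901 and 3 µM of the GSK3 inhibitor CHIR99021, a pair of inhibitors known as 2i. Where a result needed another reference, 3 libraries kept 24 h without retinoic acid after LIF and 2i were withdrawn (noRA_24h) and 3 libraries at 12 h with 2 µM retinoic acid (RA_12h) were used. A culture held in LIF and 2i until 24 h is not among the groups, so retinoic acid, any withdrawal of LIF and 2i, and time in culture cannot be told apart in the contrast with ESC_0h. The labels give the cell type as ESC without a line name and number the replicates without saying that they were separate cultures, so p-values measure the spread between these samples alone, and that spread may be technical.

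Retinoic acid is made from vitamin A and acts by binding retinoic acid receptors, which sit on DNA as pairs with retinoid X receptors and switch on target genes. Among the best known targets are the enzymes that break retinoic acid down, its own receptors, and the Hox genes, which set position along the body axis. In ESCs it drives exit from the naive pluripotent state, which LIF acting through STAT3, WNT signalling mimicked by the GSK3 inhibitor, and a block of ERK signalling together maintain.

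The values used were transcript abundances scaled to a fixed sum per library (TPM), and changes are differences of log2(TPM + 1), RA_24h minus ESC_0h, with their standard error (SE). A pseudocount of 1 makes the changes of low genes smaller than their ratios. They were tested with limma over 13948 genes that reached 1 TPM in at least 3 of the 15 libraries, and a gene was called at a Benjamini-Hochberg adjusted p below 0.05. Changes given with an SE alone all passed, the highest adjusted p among them being 0.0025, for Foxa3. Aligned sequence came to 3.36 to 3.56 gigabases in the RA_24h libraries and 2.96 to 3.21 gigabases in the ESC_0h libraries. A value of 0 need not mean absence. The housekeeping gene Hprt was listed at 0.875, 1.10 and 0.711 TPM in RA_24h and at 0, 0 and 0.315 TPM in ESC_0h. Without a line name it is not known whether these cells express Hprt. Its values therefore cannot decide how far a 0 can be trusted. In bulk samples such as these, fewer cells of a type and less RNA per cell cannot be told apart.

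RA_24h library 2 stood apart from the libraries of its own group. In it 1520 genes lay 2-fold or more from both other RA_24h libraries, 1514 of them higher and 6 lower, while libraries 1 and 3 had 16 and 22 such genes. In ESC_0h the libraries had 30, 17 and 30. The Pearson correlation of library 2 with libraries 3 and 1 was 0.9579 and 0.9675, against 0.9944 between libraries 1 and 3 and 0.9907 to 0.9934 within ESC_0h, over the genes tested. Its shift followed base composition: in 10 equal bins of genes ordered by transcript GC content, the lowest bin was displaced by a median of 1.13 on the log2 scale from the other RA_24h libraries, and the highest bin by -0.24. The 1514 genes had a median GC content of 42% and a median length of 4575 bases, against 50.3% and 3083 bases for all genes tested. Pds5a, a cohesin regulator, stood at 9.36, 71.9 and 7.64 TPM in RA_24h, against 31.4, 36.1 and 60.0 TPM in ESC_0h. The demethylase gene Tet1 stood at 6.02, 26.4 and 4.74 TPM in RA_24h, against 24.3, 30.4 and 42.5 TPM in ESC_0h. In both genes library 2 was the high RA_24h library, above all ESC_0h libraries in Pds5a and within their range in Tet1. ESC_0h library 3 was displaced the same way by a smaller amount, with 0.363 in the lowest GC bin. The shift was not particular to RA_24h. Library 1 of the group at 12 h without retinoic acid (noRA_12h), part of the same fit, had 735 such genes, 728 of them higher. It lay at 0.833 in the lowest GC bin. RA_24h library 2 was kept, and each count against ESC_0h is also given without it where it moves by more than 1.5 times.

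**Figure D1:**
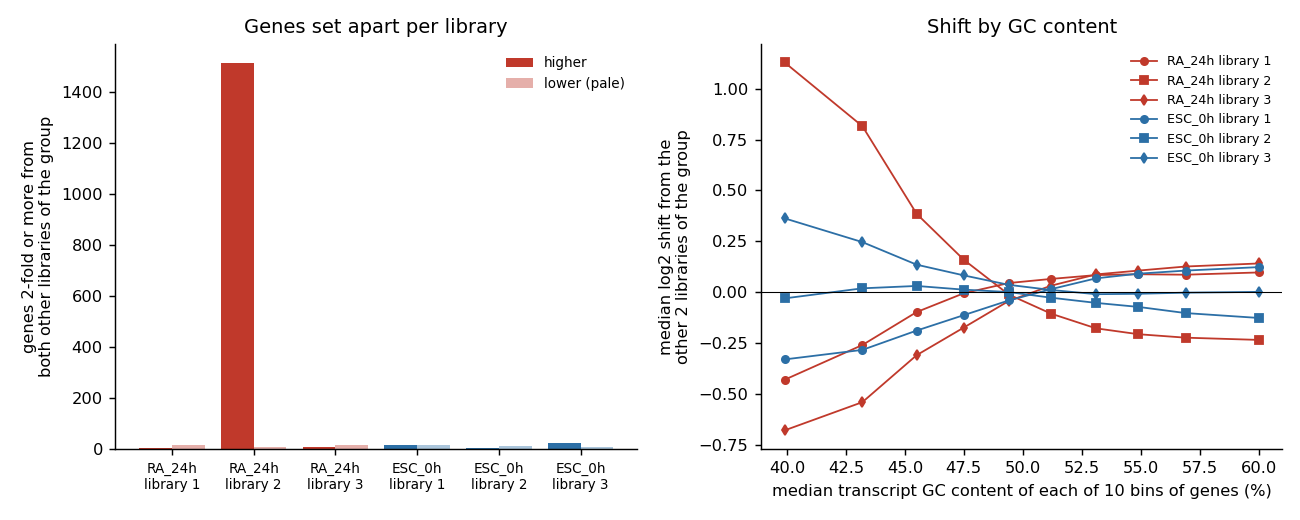
Left, the number of genes (y axis) that lie 2-fold or more from both other libraries of the same group, for each RA_24h and ESC_0h library, with genes that are higher in solid and lower in pale colour. Right, the median log2 shift of each library from the other libraries of its group (y axis) in 10 bins of genes ordered by transcript GC content in percent (x axis): RA_24h library 2 has 1514 higher genes and lies at 1.13 in the lowest GC bin and at -0.24 in the highest.

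The labels were checked with 3 marker genes. Hoxa5, which patterns the body axis and lies in the Hoxa cluster on chromosome 6 (52201754 to 52204587, mm10), stood at 84.0, 73.6 and 78.9 TPM in RA_24h, against 0.130, 0.0746 and 0.289 TPM in ESC_0h. Gata6, a transcription factor of the primitive endoderm on chromosome 18 (11052064 to 11085635), stood at 71.1, 59.7 and 63.0 TPM in RA_24h, against 0.806, 0.456 and 0.629 TPM in ESC_0h. Klf4, a factor of the naive network on chromosome 4 (55527143 to 55532466), stood at 39.5, 34.7 and 36.8 TPM in RA_24h, against 149, 153 and 167 TPM in ESC_0h. The groups did not overlap in any of the 3 genes, and each gene lay on the side that its label would give. Klf4 was lower still in noRA_24h, at 23.8, 23.9 and 21.8 TPM, so its fall does not check the retinoic acid label. The changes were 6.10 (SE 0.12) for Hoxa5, 5.33 (SE 0.14) for Gata6 and -2.05 (SE 0.07) for Klf4, with limma adjusted p of 6.90e-13, 5.47e-12 and 5.27e-11.

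Of the 13948 genes, 3978 were higher in RA_24h (28.5%) and 3081 were lower (22.1%), so that 50.6% differed between the groups. Of these, 1260 were higher by 2-fold or more (9.03%) and 794 lower by 2-fold or more (5.69%). The 3 RA_24h and 3 ESC_0h libraries did not overlap in 52.8% of genes, and the median change of all genes was 0.017. Without RA_24h library 2 the calls were 4003 higher and 3785 lower, and the 2-fold calls were 1261 higher and 1294 lower. Among the 1514 genes raised in library 2, 63 were called lower with it and 697 without it, 511 of these by 2-fold or more. On the first axis of differences within groups, which holds 67.2% of that variance, library 2 lay at 51.6, RA_24h libraries 1 and 3 at -16.9 and -29.5, and the ESC_0h libraries at -0.812, 10.7 and 28.5. Without library 2 the groups did not overlap on this axis, so the further lower calls and the axis cannot be told apart.

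**Figure D2:**
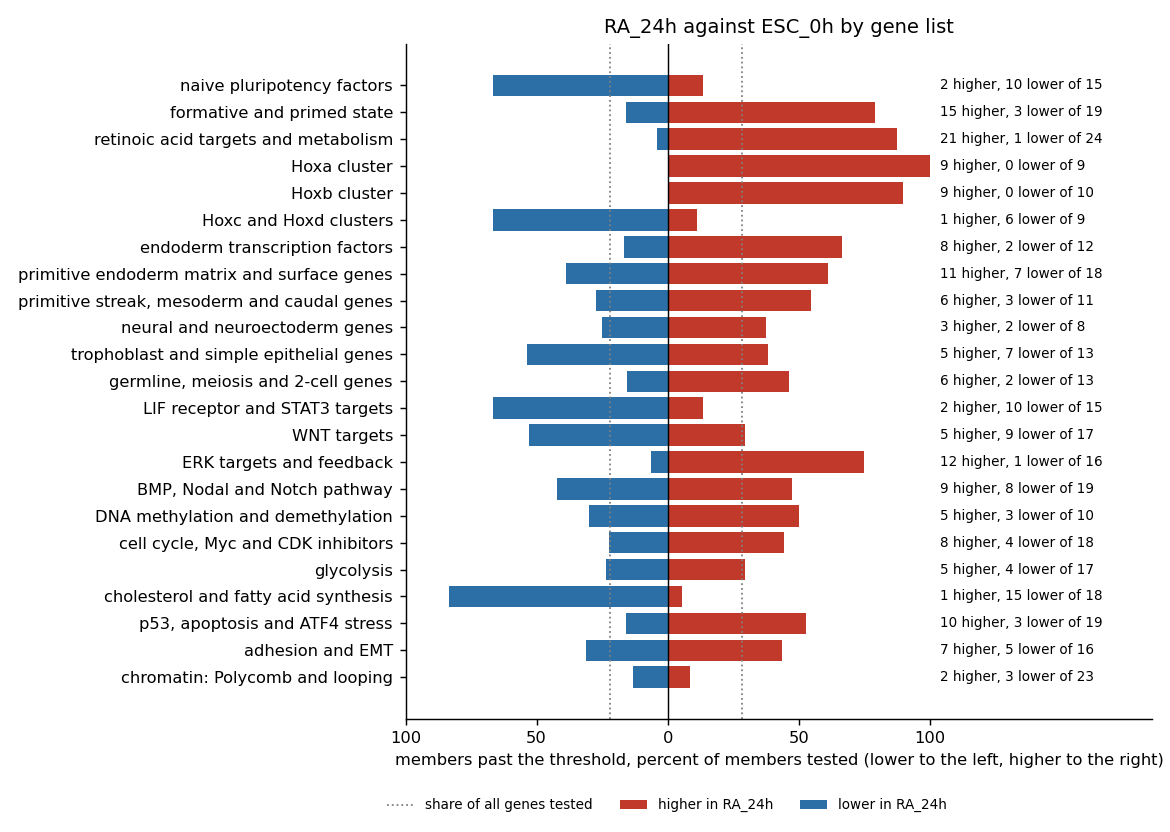
Members of 23 gene lists past the threshold in RA_24h against ESC_0h, as a percent of members tested (x axis), with lower members to the left and higher members to the right, and the counts beside each list (y axis). Dotted lines mark the 28.5% of all genes that were higher and the 22.1% that were lower: the Hoxa, Hoxb and retinoic acid lists reach furthest to the right, and cholesterol and fatty acid synthesis furthest to the left.

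**Figure D3:**
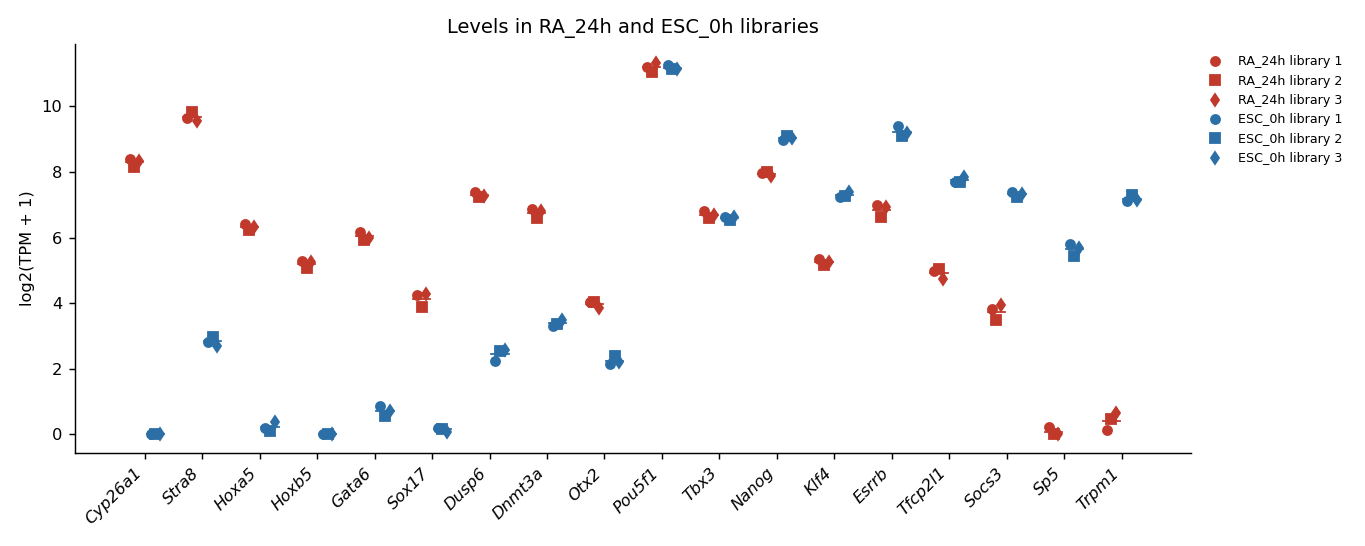
Levels of 18 genes as log2(TPM + 1) (y axis) in each RA_24h library (red) and each ESC_0h library (blue), with short lines at the group means. Cyp26a1, Stra8, the Hox genes and Gata6 are far higher in RA_24h, Pou5f1 and Tbx3 overlap between the groups, and the naive factors, Socs3, Sp5 and Trpm1 are lower in RA_24h.

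The highest change belonged to Cyp26a1, the enzyme that clears retinoic acid, on chromosome 19 (37697798 to 37701536). It stood at 336, 281 and 324 TPM in RA_24h and was listed at 0 in all 3 ESC_0h libraries (limma adjusted p = 1.11e-13). It stood at 0.681, 0.961 and 0.608 TPM in noRA_24h and at 122, 121 and 119 TPM in RA_12h, so that the level in RA_24h was also above that at 12 h (1.36, SE 0.13, limma adjusted p = 5.62e-06). Cyp26b1, a second enzyme of the family, stood at 21.5, 19.9 and 22.7 TPM in RA_24h and at no more than 0.0844 TPM in ESC_0h. Stra8, named for its stimulation by retinoic acid and needed for entry into meiosis, had the highest level of the list, with 798, 910 and 757 TPM in RA_24h, against 6.05, 6.84 and 5.49 TPM in ESC_0h. Its mean was 134 times as high in RA_24h, and its change of 6.85 (SE 0.11) passed with the same adjusted p as Cyp26a1. Rarb, the receptor gene that retinoic acid induces through its own promoter, was lower in level, at 4.94, 6.91 and 3.28 TPM in RA_24h and 0.105, 0 and 0.236 TPM in ESC_0h (2.40, SE 0.17, limma adjusted p = 9.09e-08).

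The promoters of Cyp26a1 and Rarb are shown because they alone, among the 22 of 28 retinoic acid list genes with a promoter window in the RefSeq table (GRCm38.p6), hold a direct repeat of the short motif that retinoic acid receptors bind. The motif searched was AGGTCA, with the variant AGTTCA, the variant GGTTCA and the variant GGGTCA also allowed. A repeat was any pair of these on the same strand spaced by 2 or 5 bases, and both strands were searched. A window runs over 300 bases, 250 before the gene start and 50 from it, on the gene's strand and 5′ to 3′. The Cyp26a1 window lies at chr19:37697558-37697857 on the plus strand and the Rarb window at chr14:16575427-16575726 on the minus strand, with the repeat in capitals.
Cyp26a1: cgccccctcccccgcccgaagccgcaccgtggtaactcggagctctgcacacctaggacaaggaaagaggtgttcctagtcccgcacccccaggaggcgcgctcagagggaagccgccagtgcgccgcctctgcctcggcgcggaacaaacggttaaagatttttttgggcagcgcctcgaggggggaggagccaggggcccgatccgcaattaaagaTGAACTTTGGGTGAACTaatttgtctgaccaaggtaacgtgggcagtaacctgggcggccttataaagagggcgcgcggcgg
Rarb: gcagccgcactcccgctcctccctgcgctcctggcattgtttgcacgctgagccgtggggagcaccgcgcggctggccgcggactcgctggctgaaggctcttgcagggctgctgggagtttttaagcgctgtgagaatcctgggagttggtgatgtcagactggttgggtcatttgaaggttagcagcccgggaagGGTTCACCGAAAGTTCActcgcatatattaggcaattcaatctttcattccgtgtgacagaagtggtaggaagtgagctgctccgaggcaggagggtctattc
In Cyp26a1 the repeat reads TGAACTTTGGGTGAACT, which is the opposite strand of a repeat spaced by 5, and lies 32 to 16 bases before the start. In Rarb it reads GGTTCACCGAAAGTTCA on the gene's strand, also spaced by 5, and lies 53 to 37 bases before the start. Of 32851 windows of the same length in the table, 32 held a repeat spaced by 5 (0.0974%), 88 one spaced by 2 (0.268%) and 120 either (0.365%). Among the 12 highest genes, 8 had a window and 1, Cyp26a1, held a match. A match is a description of these letters, and binding was not measured.

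Of 28 genes of retinoic acid response and metabolism, 24 were tested, 21 rose, 1 fell and 2 did not pass, with a median change of 2.05. For all genes the shares were 28.5% higher and 22.1% lower. The 4 below the filter were Aldh1a1, Nr2f1, Nr2f2 and Tshz1. Stra6, the membrane receptor that takes up retinol, stood at 42.9, 34.5 and 42.8 TPM in RA_24h, against 0.756, 0.411 and 0.734 TPM in ESC_0h, and rose by 4.65 (SE 0.12). Aldh1a3, which makes retinoic acid, was the member that fell, to 0.706, 0.264 and 0.302 TPM in RA_24h, against 2.18, 2.59 and 2.67 TPM in ESC_0h (-1.30, SE 0.17, limma adjusted p = 2.52e-05). Rxra and Rai1 did not pass (limma adjusted p = 0.156 and 0.0707). Rai1 passed without RA_24h library 2 (0.46, limma adjusted p = 0.0204). Against noRA_24h the same list had 19 higher, 1 lower and 4 not past, where 35.2% of all genes passed in that comparison, 22.8% higher and 12.5% lower. Without RA_24h library 2 that 12.5% of lower genes, 1737, became 3583, and the share of its calls that were higher was 52.4% in place of 64.7%. The receptor gene Rarg, at 299, 260 and 306 TPM in RA_24h and 30.4, 27.2 and 28.5 TPM in ESC_0h, rose by 3.28 (SE 0.07) but did not pass against noRA_24h (0.06, SE 0.07, limma adjusted p = 0.507), where it stood at 286, 273 and 268 TPM. Rarg, Rarb, Lama1, Pds5a and the members that make up counts of 5 or fewer were named after their values were seen.

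The other genes among the 12 highest were Hoxa5, Gata6, Hoxb5 and Hoxb2, and 6 genes of other kinds. Cd37, a tetraspanin mostly known from B cells, stood at 116, 97.1 and 126 TPM in RA_24h, against 0.874, 1.23 and 2.50 TPM in ESC_0h (5.54, SE 0.20). Porcn, the acyltransferase that WNT ligands need for secretion, stood at 333, 268 and 331 TPM in RA_24h, against 9.01, 5.18 and 6.56 TPM in ESC_0h (5.32, SE 0.14). Cntfr, the receptor for ciliary neurotrophic factor, stood at 149, 119 and 147 TPM in RA_24h, against 3.91, 3.01 and 3.31 TPM in ESC_0h (4.98, SE 0.11). All 3 were also higher than in noRA_24h, by 3.22 (SE 0.20), 1.92 (SE 0.14) and 2.04 (SE 0.11). Car4, a carbonic anhydrase, stood at 50.6, 46.9 and 46.2 TPM in RA_24h, against 0, 0.266 and 0 TPM in ESC_0h, but at 34.7, 36.0 and 36.7 TPM in noRA_24h. Its difference from noRA_24h was 0.41 (SE 0.10, limma adjusted p = 0.00738). Foxp1, a forkhead transcription factor, and Cphx1, a homeobox gene, rose by 5.01 (SE 0.15) and 5.04 (SE 0.16). They were above noRA_24h by 0.97 (SE 0.15) and 2.30 (SE 0.16). Foxp1 stood at 38.6, 37.4 and 37.9 TPM in noRA_24h, against 0.876, 2.03 and 1.34 TPM in ESC_0h.

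The 9 members of the Hoxa cluster read here rose, with a median change of 3.00, and Hoxa13 was below the filter. In the Hoxb cluster 9 of 10 rose and Hoxb13 did not pass, with a median of 3.90. Hoxa7 stood at 54.8, 47.3 and 54.5 TPM in RA_24h, against 2.90, 2.73 and 2.52 TPM in ESC_0h (3.84, SE 0.13). Hoxb5 stood at 38.1, 32.3 and 36.8 TPM and Hoxb2 at 36.9, 25.8 and 39.4 TPM in RA_24h, and both were listed at 0 in every ESC_0h library. Hoxb8 stood at 26.7, 25.7 and 27.1 TPM in RA_24h and at no more than 0.0905 TPM in ESC_0h. Within both clusters the genes at the 13 end were at the low end: Hoxa13 had 0.203 to 0.547 TPM in RA_24h, and Hoxb13 had 3.09, 1.21 and 2.28 TPM in RA_24h, against 3.48, 3.41 and 2.30 TPM in ESC_0h (-0.38, SE 0.20, limma adjusted p = 0.131). Without RA_24h library 1, 1 Hoxb gene was called lower. In RA_24h against RA_12h, the 9 Hoxa genes and 9 of 10 tested Hoxb genes were higher, where 34.6% of all genes passed, 17.8% higher and 16.8% lower. The share of that comparison's calls that were higher was 51.5%, but 38.0% after quantile normalization and 64.1% after a correction for GC content and length, and its median over all genes was 0.077, but -0.034 after quantile normalization. Hoxb8 differed by 3.22 (SE 0.14) between RA_24h and RA_12h, where it stood at 2.25, 1.63 and 2.02 TPM.

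The Hoxc and Hoxd genes differed from this. Of 18 members 9 were tested, 1 rose, 6 fell and 2 did not pass, with a median of -0.57, where 28.5% of all genes rose and 22.1% fell. Hoxc12 fell to 0.174, 0.0983 and 0.343 TPM in RA_24h, against 8.14, 7.37 and 9.72 TPM in ESC_0h (-2.96, SE 0.16, limma adjusted p = 6.08e-09). Hoxc10, Hoxc11 and Hoxc13 fell with it, by 1.83 (SE 0.16), 1.52 (SE 0.16) and 1.68 (SE 0.18). Hoxd13, the single member that rose, stood at 2.32, 1.83 and 1.68 TPM in RA_24h, against 0.457, 0.545 and 0.415 TPM in ESC_0h. Hoxc4 and Hoxc5 did not pass (0.06 and -0.10, limma adjusted p = 0.777 and 0.721). Against noRA_24h none of the 9 was lower and 6 were higher: Hoxc4 stood at 6.29, 4.97 and 7.25 TPM in RA_24h, against 1.12, 1.19 and 1.02 TPM in noRA_24h (1.75, SE 0.16). The strand used by the authors' estimates is not stated, and the Hox clusters hold antisense and overlapping transcripts, so levels of single members are uncertain to that extent.

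**Figure D4:**
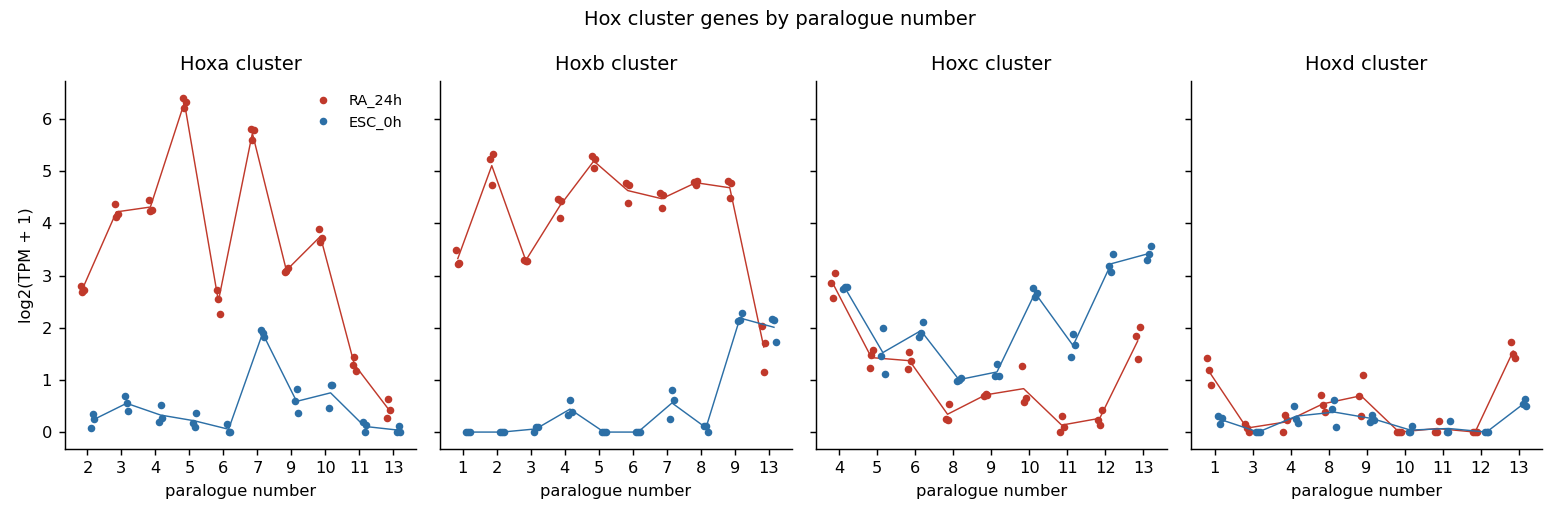
Levels of Hox genes of each cluster as log2(TPM + 1) (y axis) by paralogue number (x axis), for 3 RA_24h libraries (red) and 3 ESC_0h libraries (blue), with lines through the group means. The Hoxa and Hoxb genes are higher in RA_24h up to Hoxa11 and Hoxb9, the Hoxc genes from Hoxc10 to Hoxc13 are higher in ESC_0h, and the Hoxd genes are low in both groups.

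Endoderm genes were described by a list of transcription factors, which mixes factors of the primitive endoderm, the extraembryonic layer that lines the yolk sac, with factors of the organizer and of embryonic endoderm, and by a list of matrix and surface genes. Of 14 transcription factors 12 were tested, 8 rose, 2 fell and 2 did not pass, with a median of 1.92. By comparison, 28.5% of all genes were higher and 22.1% lower. Sox17 stood at 18, 13.8 and 18.3 TPM in RA_24h, against 0.143, 0.123 and 0.0548 TPM in ESC_0h (3.99, SE 0.26, limma adjusted p = 2.69e-08). Its level in RA_12h was 0.0925, 1.26 and 0.504 TPM, so that most of the difference lay between 12 h and 24 h (3.50, SE 0.26). Sox7 rose by 3.19 (SE 0.12). Gsc and Foxa3 fell, by 1.60 (SE 0.13) and 0.80 (SE 0.18), and Hnf4a and Hhex did not pass. Gsc, an organizer gene, stood at 0.424, 0.507 and 0.235 TPM in RA_24h, against 3.75, 2.83 and 3.07 TPM in ESC_0h.

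Of 23 matrix and surface genes 18 were tested, 11 rose and 7 fell, so that every tested member passed, with a median of 1.31. Shares over all genes were 28.5% higher and 22.1% lower. Dpp4, at 6.5, 16.5 and 5.85 TPM in RA_24h, did not pass without RA_24h library 2 (0.68, limma adjusted p = 0.132). That left 10 members higher. Col4a1, a collagen of basement membranes, stood at 82.4, 69.8 and 80.0 TPM in RA_24h, against 8.09, 7.83 and 8.22 TPM in ESC_0h (3.11, SE 0.07). Pdgfra, a surface receptor of the early primitive endoderm, stood at 6.80, 10.6 and 5.17 TPM in RA_24h, against 0.604, 0.285 and 0.420 TPM in ESC_0h (2.52, SE 0.19). The basement membrane genes did not move as 1 group: Lama1, a laminin chain, fell to 37.1, 35.1 and 32.3 TPM in RA_24h, against 77.5, 65.6 and 74.6 TPM in ESC_0h (-1.03, SE 0.10). Against noRA_24h, where Lama1 stood at 3.37, 3.68 and 3.05 TPM, it was higher by 3.04 (SE 0.10). The 5 members below the filter were Ttr, Afp, Apoa1, Apob and Thbd, with Afp at 0.402 to 0.547 TPM and Ttr at 0, 0 and 0.116 TPM in RA_24h.

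Naive pluripotency factors were mostly lower. Of 15 members 10 fell, 2 rose and 3 did not pass, with a median of -1.22, and the libraries did not overlap in 12. As shares of all genes, 22.1% were lower, 28.5% were higher and 52.8% did not overlap. Tfcp2l1 stood at 30.3, 31.8 and 25.6 TPM in RA_24h, against 205, 206 and 230 TPM in ESC_0h (-2.83, SE 0.10, limma adjusted p = 5.47e-11). Esrrb, an orphan nuclear receptor of the naive network, stood at 126, 98.4 and 121 TPM in RA_24h, against 670, 550 and 585 TPM in ESC_0h (-2.38, SE 0.10). Prdm14 and Klf2 fell by 2.51 (SE 0.10) and 2.19 (SE 0.12). Each of them was still above the filter of 1 TPM in every RA_24h library. Pou5f1, which encodes Oct4 and is shared by naive and primed cells, stood at 2380, 2120 and 2590 TPM in RA_24h, against 2440, 2280 and 2250 TPM in ESC_0h, with overlapping groups (0.022, SE 0.07, limma adjusted p = 0.822). Tbx3 and Zfp42 also did not pass (limma adjusted p = 0.267 and 0.0957), but Zfp42 was lower without RA_24h library 2 (-0.36, limma adjusted p = 0.0192). Klf5 and Nr0b1 rose, by 0.55 (SE 0.05) and 0.75 (SE 0.10). Against noRA_24h, Klf4 was higher by 0.65 (SE 0.07, limma adjusted p = 8.94e-06), with 23.8, 23.9 and 21.8 TPM in noRA_24h, and Prdm14 and Klf2 were each lower by 0.68 (SE 0.10 and 0.12).

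The formative and primed list moved the other way. Of 19 members 15 rose, 3 fell and Fgf5 did not pass, with a median of 1.72. Across all genes 28.5% were higher and 22.1% lower. Dnmt3a, a de novo DNA methyltransferase, stood at 116, 96.1 and 111 TPM in RA_24h, against 8.93, 9.23 and 10.3 TPM in ESC_0h (3.37, SE 0.08). Pou3f1 and Utf1 rose by 3.16 (SE 0.13) and 3.12 (SE 0.10). Foxd3, Lef1 and Etv5 fell, by 1.65 (SE 0.10), 1.16 (SE 0.13) and 0.82 (SE 0.07). The same 19 genes against noRA_24h had 4 higher, 15 lower and 0 not past, with a median of -0.78. In that comparison 22.8% of all genes were higher and 12.5% lower, and the lower share grew without RA_24h library 2. Otx2, the transcription factor that marks exit from the naive state, stood at 15.2, 15.5 and 13.4 TPM in RA_24h, against 3.45, 4.23 and 3.60 TPM in ESC_0h, and rose by 1.72 (SE 0.10). In noRA_24h it stood at 167, 174 and 162 TPM, so that RA_24h was lower by 3.43 (SE 0.10, limma adjusted p = 3.00e-11). Fgf5, a marker of the epiblast after implantation, stood at 0.303, 0.183 and 0.150 TPM in RA_24h and was listed at 0 in every ESC_0h library, while noRA_24h held 13.6, 15.0 and 12.5 TPM.

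**Figure D5:**
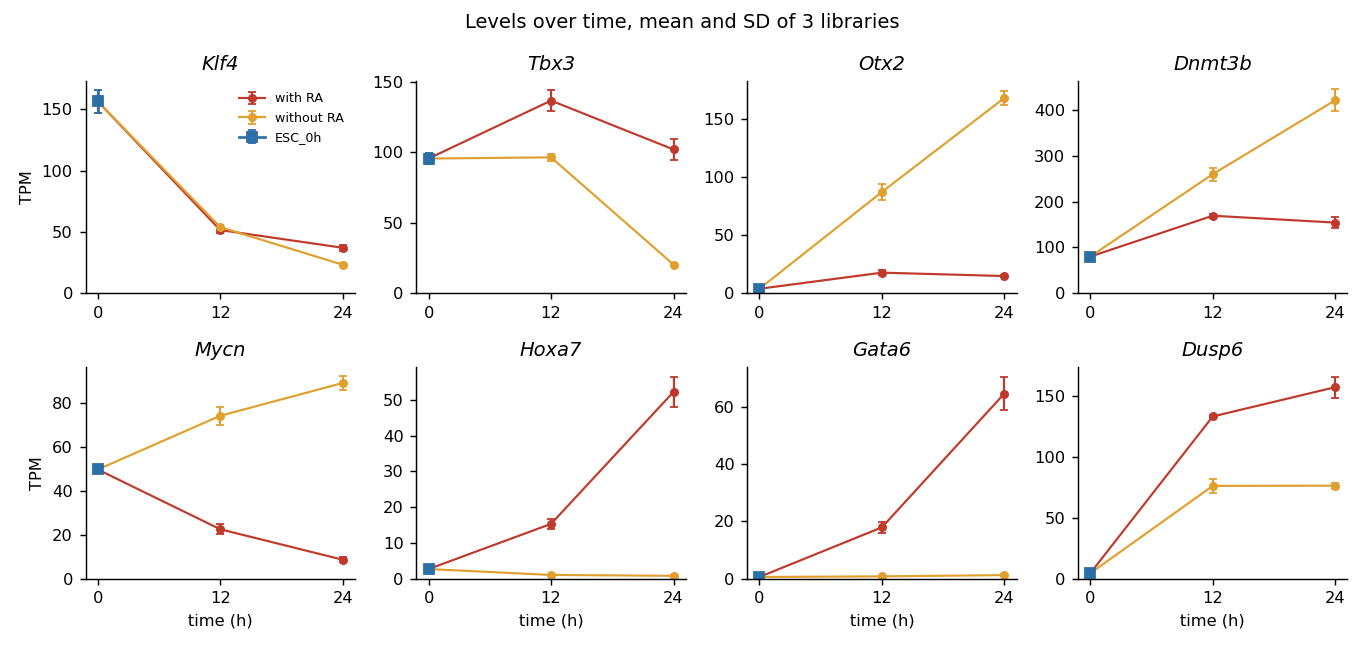
Levels of 8 genes in TPM (y axis) at 0 h, 12 h and 24 h (x axis) with retinoic acid (red) and without it (orange) from the same ESC_0h libraries (blue), as means with SD bars of 3 libraries. Otx2 and Dnmt3b end far lower with retinoic acid, Tbx3 overlaps the ESC_0h libraries at 24 h with it, and Hoxa7 and Mycn end on opposite sides of their starting level.

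Targets of the pathways held by LIF and 2i were read next, beside shares over all genes of 28.5% higher and 22.1% lower. Of 15 LIF and STAT3 genes 10 fell, 2 rose and 3 did not pass, with a median of -1.12. Socs3, which STAT3 induces, stood at 13.0, 10.1 and 14.4 TPM in RA_24h, against 167, 150 and 159 TPM in ESC_0h (-3.58, SE 0.14, limma adjusted p = 2.04e-10), and at 9.17, 6.88 and 7.79 TPM in noRA_24h. The 2 that rose were Klf5 and Pim1, a kinase gene at 238, 199 and 233 TPM in RA_24h, against 132, 117 and 126 TPM in ESC_0h. Of 18 WNT targets 17 were tested, 9 fell, 5 rose and 3 did not pass, with a median of -0.39. Sp5, a direct WNT target, stood at 0.158, 0 and 0 TPM in RA_24h, against 54.9, 42.1 and 50.5 TPM in ESC_0h (-5.57, SE 0.14). Axin2 and Ccnd1 fell by 2.26 (SE 0.09) and 2.36 (SE 0.08). The 5 that rose were Myc, Wnt8a, Dkk1, Nkd2 and Cdx1, of which Cdx1 is also a known target of retinoic acid.

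Of 18 ERK targets and feedback genes 16 were tested, 12 rose, Etv5 fell and 3 did not pass, with a median of 1.19. Here too, 28.5% of all genes were higher and 22.1% lower. Dusp6, the phosphatase that switches ERK off, stood at 167, 151 and 153 TPM in RA_24h, against 3.72, 4.83 and 4.98 TPM in ESC_0h (4.85, SE 0.09, limma adjusted p = 2.74e-13). It stood at 74.1, 78.9 and 75.9 TPM in noRA_24h, and RA_24h was higher by 1.03 (SE 0.09). Spry4 and Phlda1 rose by 4.13 (SE 0.07) and 3.90 (SE 0.08). Spry4 did not pass against noRA_24h (0.12, SE 0.07, limma adjusted p = 0.228). Levels of Dusp6, Socs3 and Sp5 were thus all closer to noRA_24h than to ESC_0h. Not every member was near noRA_24h: Ccnd1, at 26.9, 21.1 and 25.6 TPM in RA_24h, lay below both groups. It stood at 103, 108 and 104 TPM in noRA_24h and at 132, 126 and 129 TPM in ESC_0h.

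In the BMP, Nodal and Notch list, 19 of 20 members were tested, 9 rose, 8 fell and 2 did not pass, with a median of 0.29. These counts stand beside 28.5% higher and 22.1% lower over all genes. Lefty1, a Nodal inhibitor and target, stood at 84.2, 68.4 and 88.1 TPM in RA_24h, against 2.73, 2.35 and 2.06 TPM in ESC_0h (4.58, SE 0.14), and RA_24h was above noRA_24h by 1.74 (SE 0.14). Id1, a BMP target, stood at 168, 145 and 180 TPM in RA_24h, against 11.6, 8.35 and 11 TPM in ESC_0h (3.88, SE 0.12). Id3 and Lefty2 rose by 2.94 (SE 0.12) and 2.48 (SE 0.08), and neither passed against noRA_24h (limma adjusted p = 0.573 and 0.0644).

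Among cell cycle genes 8 of 18 rose, 4 fell and 6 did not pass, with a median of 0.24. Over all genes 28.5% were higher and 22.1% lower. The Myc family split: Myc rose to 70.4, 60.4 and 67.4 TPM in RA_24h, against 5.64, 4.10 and 4.45 TPM in ESC_0h (3.56, SE 0.10), and Mycn fell to 9.72, 7.67 and 8.70 TPM in RA_24h, against 49.4, 49.6 and 50.6 TPM in ESC_0h (-2.40, SE 0.09). The CDK inhibitors split as well. Cdkn1c, which encodes p57, stood at 70.9, 56.0 and 78.7 TPM in RA_24h, against 1.78, 2.27 and 2.08 TPM in ESC_0h (4.50, SE 0.14), and Cdkn1a, which encodes p21, at 49.0, 47.2 and 56.2 TPM in RA_24h, against 266, 242 and 256 TPM in ESC_0h (-2.31, SE 0.07). Cdkn1c was at 7.81, 7.90 and 7.80 TPM in RA_12h, so that it too differed mostly between 12 h and 24 h (2.96, SE 0.14). Ccnd2 rose by 3.29 (SE 0.15), and Ccnd1 fell as given above. Against noRA_24h, Myc, Cdkn1a and Ccnd2 did not pass (0.25, -0.02 and 0.39, limma adjusted p = 0.0779, 0.806 and 0.0578). Cdkn1c was higher than in noRA_24h by 0.83 (SE 0.14), and Mycn was lower by 3.22 (SE 0.09).

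Metabolic genes were described by lists of lipid synthesis and of glycolysis, beside shares over all genes of 28.5% higher and 22.1% lower. Of 18 genes of cholesterol and fatty acid synthesis 15 fell, Acaca rose and 2 did not pass, with a median of -0.51. Dhcr7 and Fdft1, both enzymes of the cholesterol pathway, fell by 1.06 (SE 0.16) and 0.79 (SE 0.07). Against noRA_24h 6 of the 18 were lower, 2 higher and 10 not past, where 12.5% of all genes were lower and 22.8% higher. Of 17 tested glycolysis genes 5 rose, 4 fell and 8 did not pass, near the 28.5% higher and 22.1% lower of all genes. Hk1, a hexokinase, stood at 39.6, 32.5 and 38.5 TPM in RA_24h, against 200, 179 and 184 TPM in ESC_0h (-2.32, SE 0.08), while the glucose transporter gene Slc2a1 stood at 914, 759 and 911 TPM in RA_24h, against 483, 443 and 461 TPM in ESC_0h (0.89, SE 0.08).

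Germline and meiosis genes had 6 of 13 tested members higher, 2 lower and 5 not past. The shares over all genes were 28.5% higher and 22.1% lower. Mael, a gene of the piRNA pathway, stood at 61.8, 63.2 and 53.5 TPM in RA_24h, against 5.43, 4.33 and 4.46 TPM in ESC_0h (3.40, SE 0.09), but did not pass against noRA_24h (-0.11, SE 0.09, limma adjusted p = 0.333). Dazl, an RNA-binding germ cell gene, stood at 19.3, 71.7 and 16.1 TPM in RA_24h, against 2.90, 3.90 and 4.94 TPM in ESC_0h (2.60, SE 0.56), with library 2 far above the others. Without that library its change was 1.95 (limma adjusted p = 0.00483). The meiotic genes Sycp1, Sycp3, Rec8 and Meioc did not pass, although Stra8 did.

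Other lineages were mixed, beside shares over all genes of 28.5% higher and 22.1% lower. The primitive streak, mesoderm and caudal list had 11 of 20 members tested, 6 higher, 3 lower and 2 not past. T, or brachyury, fell to 1.14, 1.16 and 1.54 TPM in RA_24h, against 9.23, 7.83 and 8.12 TPM in ESC_0h (-2.04, SE 0.14), while Meox1, a paraxial mesoderm gene, rose by 2.32 (SE 0.16). In the trophoblast list 5 of 13 tested members rose, 7 fell and 1 did not pass. Gata2 and Tfap2c fell by 2.58 (SE 0.18) and 1.93 (SE 0.11), and the simple epithelial keratin Krt18 rose by 1.84 (SE 0.11). Of 20 neural genes 8 were tested, 3 rose, 2 fell and 3 did not pass. Pax6 stood at 1.38, 2.45 and 1.16 TPM in RA_24h, against 0.159, 0.0470 and 0 TPM in ESC_0h, and Nes fell by 1.15 (SE 0.12). The adhesion list had 7 of 16 tested members higher, 5 lower and 4 not past, with the galectin Lgals3 higher by 3.48 (SE 0.09) and fibronectin, Fn1, lower by 1.70 (SE 0.09).

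Among the lists, the count of lower chromatin genes moved most without library 2. Of 23 Polycomb and looping genes 2 rose, 3 fell and 18 did not pass, while without library 2 the list had 2 higher and 12 lower. Jarid2, a Polycomb cofactor, rose by 1.44 (SE 0.11), and Pcgf2, a subunit of Polycomb repressive complexes, fell by 0.82 (SE 0.08). Rad21, a cohesin subunit, stood at 183, 266 and 149 TPM in RA_24h, against 118, 132 and 152 TPM in ESC_0h, and its call (0.54, limma adjusted p = 0.0402) was lost without library 2 (0.31, limma adjusted p = 0.153). In the DNA methylation list 5 of 10 rose, 3 fell and 2 did not pass, where 28.5% of all genes rose and 22.1% fell. Tet1 fell by 1.66 (SE 0.60, limma adjusted p = 0.0352), and by 2.36 without library 2 (limma adjusted p = 0.00206). Among 15 very long mRNAs 6 were lower with library 2 and 13 without it, and among 9 mitochondrial mRNAs 2 were lower with it and 4 without it. Without library 3 of either group 3 of the very long mRNAs were lower, and without RA_24h library 1, RA_24h library 3 or ESC_0h library 3 the mitochondrial count was 1. The higher chromatin count was 1 without RA_24h library 1, ESC_0h library 1 or ESC_0h library 2. The part of RNA quality in the other results was not tested.

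Among the 12 lowest genes, Trpm1, a cation channel gene, stood at 0.101, 0.364 and 0.562 TPM in RA_24h, against 139, 157 and 140 TPM in ESC_0h (-6.78, SE 0.14, limma adjusted p = 6.95e-13). Tdh, the threonine dehydrogenase on which mouse ESCs rely, stood at 47.4, 39.9 and 53 TPM in RA_24h, against 899, 839 and 843 TPM in ESC_0h (-4.18, SE 0.08). Sgk1, a kinase gene, stood at 14.4, 14.7 and 16.2 TPM in RA_24h, against 297, 312 and 305 TPM in ESC_0h (-4.25, SE 0.06). Tdh and Sgk1 were also lower than in noRA_24h, by 2.32 (SE 0.08) and 3.34 (SE 0.06), whereas Trpm1 did not pass in that comparison (-0.29, SE 0.14, limma adjusted p = 0.130). Also among them were Ly6g6e, Sp5, Pglyrp1, Tnni1, Serpinb1a, Nkx1-2, Gpx2 and Ephx2, with changes between -5.72 for Ly6g6e and -3.80 for Ephx2.

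Some genes did not pass against ESC_0h but differed from noRA_24h. Tbx3 stood at 110, 94.9 and 101 TPM in RA_24h, against 98.3, 91.0 and 97.3 TPM in ESC_0h, with overlapping groups, and at 21.2, 20.0 and 19.6 TPM in noRA_24h (2.27, SE 0.06, limma adjusted p = 3.00e-11). Cidea, a lipid droplet gene, Rgma, a repulsive guidance gene, Zfpm1, a cofactor of GATA factors, Mras and Ltbp3 also lay above noRA_24h, by 2.96 for Cidea down to 1.81 for Ltbp3. Below noRA_24h were Fgf5, Enpp2, Pax8, Irgm1, Aass and Arhgef28, between -3.60 for Fgf5 and -2.21 for Arhgef28. Pax8, a paired box factor, stood at 2.38, 1.10 and 2.30 TPM in RA_24h, against 0.954, 1.18 and 1.35 TPM in ESC_0h, and at 22.2, 24.3 and 21.0 TPM in noRA_24h. Without RA_24h library 2, Pax8 and Zfpm1 passed against ESC_0h (0.63 and 0.38, limma adjusted p = 7.78e-04 and 0.0234). A p above the threshold in the other 10 genes does not show that their levels were the same.

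Markers of fibroblasts, blood and endothelium were read as a check on cells from outside the culture. Over all genes 28.5% were higher and 22.1% lower. The 12 fibroblast markers summed to 22.4 to 23.6 TPM in RA_24h and 16.4 to 19.7 TPM in ESC_0h. Of the 9 tested, 3 were higher, 2 were lower and 4 did not pass. The lower count was 1 without RA_24h library 1 or 3, or without ESC_0h library 2 or 3. Tagln and Fbn1 rose, from means of 1.67 and 0.313 TPM in ESC_0h to 6.13 and 1.59 TPM in RA_24h. Thy1 and Col1a2 fell, from means of 4.65 and 1.45 TPM in ESC_0h to 2.22 and 0.692 TPM in RA_24h. Lum was listed at no more than 0.167 TPM. The 10 blood and endothelial markers summed to 245 to 260 TPM in RA_24h and 175 to 184 TPM in ESC_0h, nearly all of it Cd68 and Pecam1, and of the 7 tested 4 were higher, 1 was lower and 2 did not pass. Cd68, a lysosomal membrane gene used as a macrophage marker, stood at 142, 126 and 160 TPM in RA_24h, against 59.4, 55.2 and 62.1 TPM in ESC_0h (1.25, SE 0.09, limma adjusted p = 6.11e-08). Pecam1, which mouse ESCs also express, stood at 101, 107 and 91.3 TPM in RA_24h, against 114, 116 and 118 TPM in ESC_0h (-0.22, SE 0.06, limma adjusted p = 0.00747). Runx1, Hbb-bs and Hba-a1 also rose, from means of 0.373, 0.0769 and 0.104 TPM in ESC_0h to 3.26, 1.5 and 1.56 TPM in RA_24h. Their means in noRA_24h were 0.16, 1.78 and 2.54 TPM. Ptprc, the pan-leukocyte gene, was at no more than 0.0782 TPM in any of the 6 libraries. Whether such cells had a part in the changes was not tested.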

How the data were processed

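Gene abundance tables of 15 time course libraries were used, 3 each of RA_24h, ESC_0h, noRA_24h, RA_12h and noRA_12h, grouped by the sample titles. Per the submitters' processing notes, HISAT2 and StringTie were used with mm10, with versions and settings of both tools not given in the sources used here. Coverage (signal) and FPKM values were deposited by the authors beside TPM, per the file headers, as mean depth per base and as length- and depth-scaled abundance. The TPM values were deposited by the authors in the same tables and were the ones tested, per the file headers. The tables hold estimates and not counts, so no count test was run. Depth was read from the commonest ratio of coverage over FPKM, in aligned gigabases, and was 2.96 to 3.91 over the 15 libraries. It limits how far low values can be read.

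Rows of 1 gene identifier were summed, which left 32285 genes. A gene that reached 1 TPM in 3 or more libraries was fitted on the scale log2(TPM + 1) with R 4.3.3 and its package limma 3.58.1, using lmFit, contrasts.fit and trended eBayes for all 5 groups in 1 model, and the code was tested on simulated data. Calls used a Benjamini-Hochberg adjusted p below 0.05 over 13948 genes. GC content and length came from the longest transcript in GENCODE M21, for 99.92% of genes tested. Promoter windows came from RefSeq, matched by symbol. Figures and tables come from Python 3.11.15, pandas 2.3.3, numpy 2.4.6 and matplotlib 3.10.9.

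Named were the 12 highest and the 12 lowest called genes whose groups did not overlap, that held without each of the 6 libraries, had a mean of at least 5 TPM in the higher group and were no predicted models. Up to 4 called members per gene list with the largest change, the 6 genes on each side of noRA_24h that did not pass against ESC_0h, and 8 genes always looked up (Gata6, Hoxa5, Klf4, Cyp26a1, Otx2, Gapdh, Actb, Hprt) were added. Some genes are not reported here, and the Hoxa counts cover the members shown. The comparison, the members and the 28 lists were chosen with earlier results of these data known. The alternatives were FPKM in place of TPM, quantile normalization or median-of-ratios scaling, untrended eBayes, no filter or a filter at a mean of 5 TPM, a pseudocount of 0.1, a replicate block, only the groups compared, a correction for GC content and length, and leaving out each library. The GC and length correction together with the block was added after the data were seen. The 6 libraries of the Cyp26a1 set have another annotation and were not used here.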

Additional observations from a re-analysis of the deposited data

Results flagged for a closer look

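For 3 of the named genes, the libraries at 24 h with RA and the libraries at 24 h without RA moved to opposite sides of ESC_0h. They were picked because both changes from ESC_0h passed with opposite signs and the limma difference RA_24h minus noRA_24h passed too (n = 3 libraries per group). The adjusted p-values below were thus part of the selection and add no separate support. Hoxa7 stood at 52.2 ± 4.22 TPM in RA_24h, 0.829 ± 0.321 TPM in noRA_24h and 2.72 ± 0.187 TPM in ESC_0h. It was thus higher with RA (3.84) and lower without it (-1.04) than in ESC_0h, a difference of 4.87 (SE 0.13, limma adjusted p = 1.43e-11). Mycn stood at 8.69 ± 1.02 TPM in RA_24h, 89.3 ± 3.19 TPM in noRA_24h and 49.9 ± 0.673 TPM in ESC_0h. It was lower with RA (-2.40) and higher without it (0.83), a difference of -3.22 (SE 0.09, limma adjusted p = 2.00e-11). Thy1, a surface protein listed among the fibroblast markers, stood at 2.22 ± 0.266 TPM in RA_24h, 13.3 ± 0.665 TPM in noRA_24h and 4.65 ± 0.280 TPM in ESC_0h. It was lower with RA (-0.81) and higher without it (1.34), a difference of -2.15 (SE 0.14, limma adjusted p = 1.18e-07). All 3 directions were seen in 3 of 3 libraries of each group. Every group held 3 libraries, and single libraries were not screened by Dixon's test.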

How the results depend on the processing

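Over 2446 values of named genes under other settings, 2379 kept their direction and their side of the threshold, 45 lost the call, 17 gained it and 5 reversed. Of 133 called values, 124 stayed called under every setting and none reversed. The highest and lowest named genes had been chosen in part because they held without each RA_24h or ESC_0h library. The called list members had been chosen for the largest change. Part of this stability was thus set by the choice of genes, and the counts do not measure how stable other genes were. The reversed values were uncalled: Gapdh (0.016), Enpp2 (-0.144) and Arhgef28 (-0.007) after quantile normalization, and Irgm1 (-0.162 to 0.007) when each library was left out in turn, without ESC_0h library 1 (0.003) and RA_24h library 1 (0.007). With a mean of at least 5 TPM, a smaller set of genes, 2587 were higher than in ESC_0h, 648 and 517 were higher and lower by 2-fold or more, and 1562 were higher than in RA_12h. Quantile normalization left 1637 higher than in RA_12h, and the cause was not tested. Leaving out 1 library at a time gave 3504 to 4003 genes higher and 2685 to 3785 lower than in ESC_0h, 1261 to 1348 and 757 to 1294 of them by 2-fold. Against noRA_24h it gave 2465 to 3948 higher and 1326 to 3583 lower, and against RA_12h 1741 to 3065 and 1846 to 2408. The upper ends against ESC_0h and noRA_24h other than 1348 came without RA_24h library 2. With a correction for GC content and length, 2675 were higher and 2386 lower than in noRA_24h. Same-numbered deviations of RA_24h and ESC_0h correlated at 0.415, -0.059 and -0.561. RA_24h library 2 and ESC_0h library 3, both displaced in the lowest GC bin, correlated at 0.61. The first axis holds 67.2% of the variance within groups, so these values cannot decide whether replicate numbers pair the libraries. With replicate number as a block 3767 genes were higher and 2913 lower than in ESC_0h, 2887 and 1537 than in noRA_24h, and 2059 and 2101 than in RA_12h. Tables without counts limit what can be said of genes near 0.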

Other observations

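The list of p53, apoptosis and ATF4 stress genes had 10 of 19 tested members higher in RA_24h than in ESC_0h, 3 lower and 6 not past, with a median change of 0.29. The shares over all genes were 28.5% higher and 22.1% lower. Asns, the asparagine synthetase that ATF4 induces, stood at 619, 622 and 574 TPM in RA_24h, against 1470, 1480 and 1410 TPM in ESC_0h (-1.26, SE 0.05, limma adjusted p = 1.22e-10). Chac1, another ATF4 target, rose by 0.99 (SE 0.12), and Pmaip1, which encodes the apoptosis factor Noxa, stood at 19.1, 37.0 and 15.8 TPM in RA_24h, against 2.38, 2.84 and 3.89 TPM in ESC_0h. The members thus did not share a direction. Among nuclear retained RNAs, the imprinted Meg3 fell to 9.61, 14.8 and 11.2 TPM in RA_24h, against 104, 102 and 124 TPM in ESC_0h (-3.12, SE 0.14), and 48.9, 41.9 and 52.0 TPM in noRA_24h.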
